A study of Mus musculus with 45 samples.

Results

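Hs3st1 and 9 other genes of heparan sulfate assembly and editing (Hs6st1, Hs6st2, Hs2st1, Ndst1, Ndst2, Ext1, Ext2, Sulf1 and Sulf2) were followed across 45 mouse mammary tumours. Each gene was represented by the probe set that carried its symbol alone (10529732 for Hs3st1, 10489759 for Sulf2). 9 of the 10 genes had such a probe set, 1 each, and Ndst1 was not analysed here. They are 9 of 12123 genes that passed the filter on low values, out of 18820 measured. The tumours grew from Trp53-null mammary fragments of BALB/c donors, which were not irradiated, in cleared fat pads of wild-type BALB/c females. Hosts were 10 weeks old and had lost their own mammary epithelium at 3 weeks of age. They had received silicon ions (Si), a kind of heavy charged particle and densely ionizing radiation, or a sham exposure 3 days before the transplantation. Sham hosts gave 18 tumours, and hosts given 10, 30 and 80 cGy gave 9, 10 and 8. The question was whether an irradiated host goes with a different tumour, and all 4 groups shared the Trp53-null donor tissue, the strain and the surgery. Each tumour was taken at 1 cm3 within 600 days and measured on 1 Affymetrix array, and values are log2 expression.

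Heparan sulfate is a sugar chain on syndecans, glypicans, perlecan and other core proteins of the cell surface and matrix. EXT1 and EXT2 together polymerise the chain. NDST enzymes replace acetyl groups by sulfate on glucosamine, after which HS2ST1 sulfates the uronic acid at 2-O, HS6ST enzymes the glucosamine at 6-O and HS3ST enzymes the glucosamine at 3-O, the rarest of these marks. HS3ST1 is best known for making the site that binds antithrombin. SULF1 and SULF2 are secreted or cell-surface sulfatases that remove 6-O sulfate from finished chains. The pattern of sulfation sets which growth factors a chain holds, among them FGFs, HGF and HB-EGF, which act in mammary branching and in mammary tumours.

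Hs3st1 was chosen by its measured difference between the 80 cGy and sham tumours in these same values, and the other genes by their role in the pathway, so the Hs3st1 comparisons that include the 80 cGy tumours are a description without a test. Its comparisons of 10 and 30 cGy with sham reuse the same sham values, so they are not independent of the choice either. In the sham tumours Hs3st1 lay at 5.61 at the lowest, 6.58 at the median and 7.72 at the highest on the log2 scale. After 10 cGy the lowest, median and highest levels were 5.91, 6.87 and 8.19. After 30 cGy they were 5.30, 6.94 and 8.91. The sham and 10 cGy tumours overlapped over most of their spans, while the 30 cGy tumours reached both below and above every sham tumour. After 80 cGy the levels were 7.18 at the lowest, 8.17 at the median and 9.00 at the highest. All 8 of these tumours lay above the sham mean and 5 of the 8 above every sham tumour, while 4 of the 18 sham tumours lay above the lowest 80 cGy tumour, so the groups overlapped.

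The group means of Hs3st1 stood in the order of dose, from 6.58 ± 0.64 (SD, n = 18) in sham tumours to 6.81 ± 0.66 (n = 9), 7.00 ± 1.16 (n = 10) and 8.11 ± 0.63 (n = 8) after 10, 30 and 80 cGy. The tumours after 80 cGy stood 1.53 ± 0.33 (SE) log2 units above sham, a ratio of 2.88-fold, and 1.11 ± 0.36 above those after 30 cGy. The means of the sham, 10 and 30 cGy tumours lay closer together, and 30 against 10 cGy was not tested. In limma's test over all 12123 genes the difference from sham was 0.22 ± 0.31 after 10 cGy (adjusted p = 0.991) and 0.42 ± 0.30 after 30 cGy (adjusted p = 0.99). These p-values and the order of the means draw on sham values that entered the choice of the gene. Single tumours moved the differences. Without the highest tumour after 10 cGy, at 8.19, the difference was 0.05, and without either of the 2 highest after 30 cGy, at 8.91 and 8.87, it was 0.20 or 0.21.

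**Figure D1:**
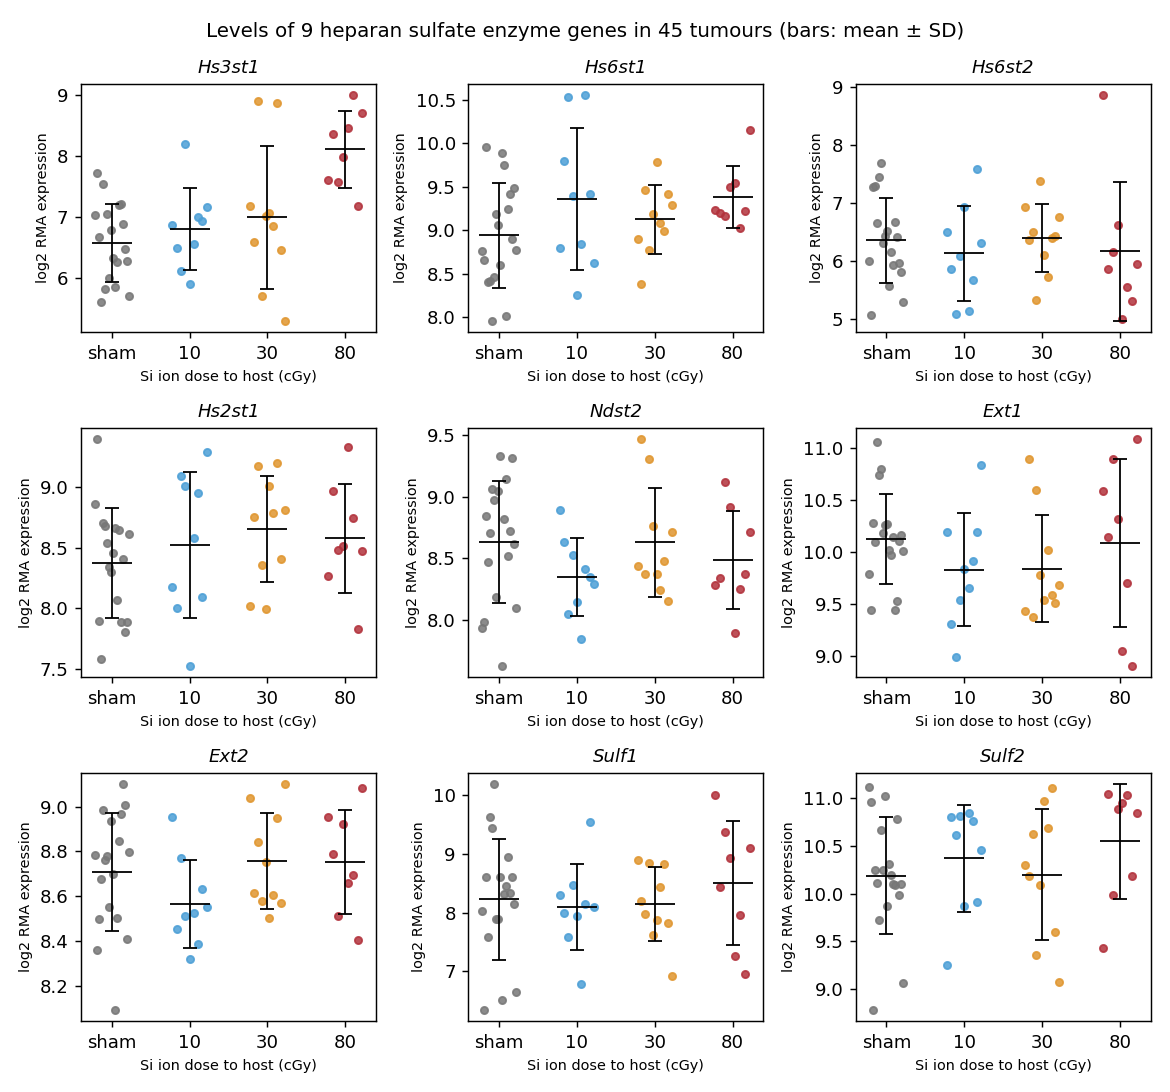
Log2 expression (vertical axes) of the 9 measured genes in each tumour by host dose in cGy (horizontal axes), with 1 point a tumour and the mean ± SD of each group in black. In the Hs3st1 panel the 80 cGy tumours lie between 7.18 and 9.00, and in every panel, this one included, the 4 groups overlap.

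The promoter windows of Hs3st1 and Sulf2 are shown because the levels of these 2 genes went together across tumours, as given further on. The sequences are the 250 bases before the annotated start, 5′ to 3′ on the gene's strand, from RefSeq's annotation of GRCm38.p6, and capitals mark CG pairs. For Sulf2 the first of 2 listed starts was used.
Hs3st1, chr5:39644632-39644881, minus strand: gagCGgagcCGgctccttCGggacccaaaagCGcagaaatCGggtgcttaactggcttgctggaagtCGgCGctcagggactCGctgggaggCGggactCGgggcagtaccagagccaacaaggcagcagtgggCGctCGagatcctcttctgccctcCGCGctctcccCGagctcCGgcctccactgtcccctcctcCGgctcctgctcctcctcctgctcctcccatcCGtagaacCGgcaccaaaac
Sulf2, chr2:166155684-166155933, minus strand: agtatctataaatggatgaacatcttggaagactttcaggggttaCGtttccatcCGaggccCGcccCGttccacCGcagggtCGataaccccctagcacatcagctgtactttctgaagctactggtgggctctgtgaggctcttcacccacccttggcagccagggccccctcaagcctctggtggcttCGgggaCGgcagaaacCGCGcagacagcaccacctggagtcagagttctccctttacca
The Hs3st1 window holds 19 CG pairs, more than 80.3% of the 32851 windows of this length in the table. The Sulf2 window holds 10, more than 62.2% of them, and the median window holds 6. Of 3 motifs searched on both strands, the GC box GGGCGG, the TATA box TATAAA and the E-box CACCTG, none was found in the Hs3st1 window. The Sulf2 window holds 1 of each, at 189, 244 and 29 bases before the start, with no overlap between them. The window of the second Sulf2 start holds 21 CG pairs, more than 83.7% of all windows, and none of the 3 motifs. Over all windows, 32.7% hold the GC box, 12.4% the TATA box and 17.2% the E-box. These matches describe letters only. Hs6st1, Hs6st2, Hs2st1, Ndst2 and Ext2 also have a window in the table, and the Hs6st1 window holds 37 CG pairs and 6 GC boxes.

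None of the other 8 genes passed the test between host groups. For Hs3st1, described above, limma's fit gave an adjusted p of 0.342 for 80 cGy against sham and 0.157 for the slope. Since the gene was chosen by its 80 cGy difference, these values are no test of it. In limma's fit no gene of the 8 reached an adjusted p of 0.05 for 10, 30 or 80 cGy against sham, for 80 cGy against 10 or 30 cGy, for the mean of the doses, for the slope on dose or for the F test over the 4 groups, where the share called over all 12123 genes was 0.0% in each. At an unadjusted p under 0.05, 0 of the 8 were called in any of these tests, where the shares over all genes were 3.65% for 10 cGy, 4.45% for 30 cGy and 6.97% for 80 cGy. The shares were 5.8% for 80 against 10 cGy, 4.04% for 80 against 30 cGy, 5.82% for the mean of the doses, 7.43% for the slope and 4.13% for the F test. A difference that misses the threshold does not show that the levels were alike, and the intervals below give the sizes that these tumours allow.

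Among the O-sulfotransferases, Hs6st1 came closest. Its lowest, median and highest levels were 7.95, 8.83 and 9.95 in sham tumours and 8.26, 9.39 and 10.56 after 10 cGy. They were 8.38, 9.13 and 9.79 after 30 cGy and 9.02, 9.23 and 10.15 after 80 cGy. All 8 tumours after 80 cGy lay above the sham mean of 8.94 ± 0.60, yet 8 of the 18 sham tumours lay above the lowest of them. Their difference from sham was 0.44 ± 0.24 (SE; 95% interval -0.05 to 0.93; unadjusted p = 0.077, adjusted p = 0.755). For 10 cGy it was 0.42 ± 0.23 (adjusted p = 0.991) and for the mean of the doses 0.35 ± 0.17 (unadjusted p = 0.0522, adjusted p = 0.864). The sham tumours fall under 2 description codes, which begin with 5 or 6. All tumours of an irradiated group share a leading digit that no other group has. Dose and digit therefore cannot be told apart, and what the digit stands for is not given. Against those of code 6 alone the 80 cGy difference was 0.20 and the 10 cGy difference 0.17, and against those of code 5 alone 0.63 and 0.61. Without the 9 tumours low in epithelial junction genes, described further on, the 80 cGy difference was 0.13 and the 10 cGy difference 0.27. Without replicate 7 or replicate 3 of the 10 cGy group the latter was 0.27 in each case.

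Hs6st2, the second 6-O sulfotransferase measured, had group means between 6.14 and 6.39. Of these tumours, 36 had an Hs6st2 level above 5.67, the median of the whole table, so part of its range lay among low signals. After 80 cGy 1 tumour reached 8.86, above every other tumour of the series, while the next in that group stood at 6.63 and the lowest at 5.01. Its difference at that dose was -0.20 ± 0.34 (95% interval -0.88 to 0.49, adjusted p = 0.948), and without the tumour at 8.86 it was -0.58. Without the lowest tumour, at 5.01, it was -0.03. Hs2st1, the 2-O sulfotransferase, had group means from 8.37 ± 0.45 in sham tumours to 8.65 ± 0.44 after 30 cGy, a difference of 0.28 ± 0.19 (adjusted p = 0.99). Its 4 groups overlapped over most of their ranges.

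The chain polymerases and Ndst2 varied less between groups than within them. Ext1 averaged 10.13 ± 0.43 in sham tumours, 9.83 ± 0.54 after 10 cGy, 9.84 ± 0.51 after 30 cGy and 10.09 ± 0.81 after 80 cGy. After 10 cGy its difference was -0.30 ± 0.22 and after 30 cGy -0.29 ± 0.21 (adjusted p = 0.991 and 0.99). Ext2 was the steadiest of the 9 genes, with 8.09 at the lowest and 9.10 at the highest over all 45 tumours, a span of 2.02-fold, and only 6.10% of the genes kept had a smaller SD. Its difference after 10 cGy was -0.14 ± 0.10 (adjusted p = 0.991). Ndst2, an N-deacetylase and N-sulfotransferase, averaged 8.63 ± 0.50 in sham tumours and 8.35 ± 0.31 after 10 cGy, a difference of -0.28 ± 0.18 (adjusted p = 0.991), and 8 of the 9 tumours after 10 cGy lay below the sham mean.

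The sulfatases had wider spreads. Sulf1 ran from 6.34 to 10.19 in the sham tumours alone, a 14.5-fold span, and its SD was larger than that of 85.4% of the genes kept. It averaged 8.23 ± 1.03 in sham tumours and 8.50 ± 1.05 after 80 cGy (difference 0.27 ± 0.38, adjusted p = 0.933). Sulf2 averaged 10.19 ± 0.61 in sham tumours, 10.37 ± 0.56 and 10.20 ± 0.68 after 10 and 30 cGy, and 10.55 ± 0.60 after 80 cGy. After 80 cGy its lowest, median and highest levels were 9.43, 10.87 and 11.05, inside the sham range of 8.78 to 11.12, and the difference was 0.36 ± 0.26 (95% interval -0.16 to 0.88, adjusted p = 0.823).

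**Figure D2:**
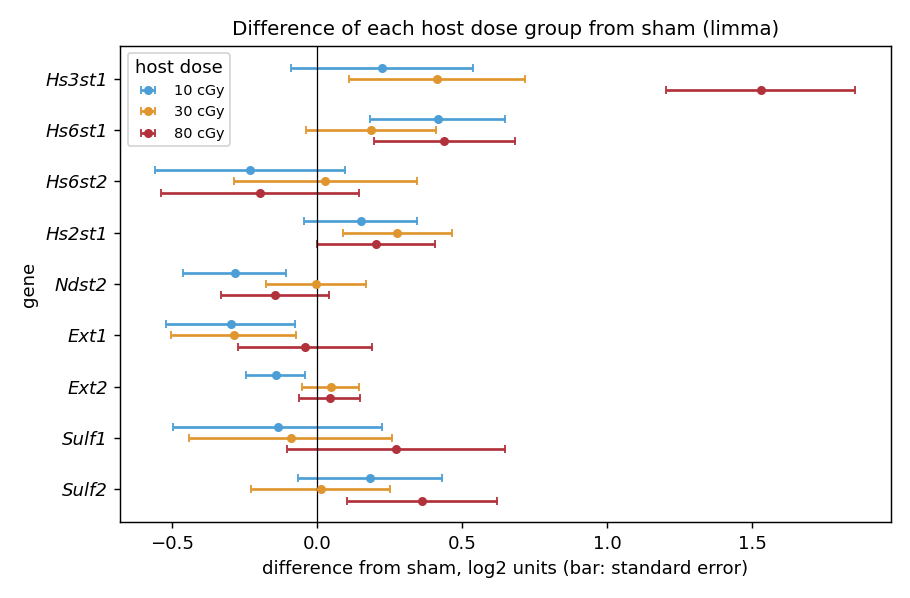
Difference of each host dose group from sham in log2 units (horizontal axis) for the 9 genes, from limma, with standard errors as bars and 1 colour a dose. The Hs3st1 value of 1.53 after 80 cGy, for which the gene was chosen, is a description. No value shown had an adjusted p under 0.05, which for the Hs3st1 value after 80 cGy is no test.

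The other genes of the pathway did not pass the test either. The 6 lists held 53 tested genes, and 0 of the 53 had an adjusted p under 0.05 in any contrast. At 10 cGy none had an unadjusted p under 0.05. At 30 cGy 3 of the 53 did, against 4.45% of all genes, and each had an adjusted p of 0.99. They were Hs3st3a1, another 3-O sulfotransferase (6.29 ± 1.45 against 5.27 ± 1.11 in sham tumours, difference 1.02 ± 0.46 SE), Hpse2, a relative of heparanase (7.36 ± 2.65 against 5.74 ± 1.79, difference 1.62 ± 0.77), and Xylt1, which adds the first sugar to a core protein (7.48 ± 0.24 against 8.00 ± 0.70, difference -0.52 ± 0.25). The sham means of Hs3st3a1 and Hpse2 lay below and just above 5.67, the median of the whole table, so both were set against low signals. In the remaining 3 lists the smallest p at 30 cGy belonged to Ugdh, the enzyme that makes UDP-glucuronic acid (difference -0.39 ± 0.21), to the syndecan Sdc2 (0.29 ± 0.34) and to the heparin-binding factor Mdk (0.57 ± 0.48).

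At 80 cGy 0 of the 53 had an unadjusted p under 0.05. The 9 genes that start the chain had 6 higher and 3 lower means, with a median difference of 0.12. The 13 core proteins had 5 higher and 8 lower (median -0.04), the 8 genes of sulfate and sugar donors 3 and 5 (median -0.07) and the 8 of breakdown 2 and 6 (median -0.05). The 12 ligands and partners had 8 higher and 4 lower (median 0.23), and the 3 remaining chain enzymes 1 and 2 (median -0.01), where over all genes 56.6% were higher and the median difference was 0.03. The smallest p of each list belonged to Fam20b, the xylose kinase (difference -0.23 ± 0.12), Srgn (0.51 ± 0.28), Slc35b3, a carrier of the sulfate donor (0.20 ± 0.11), Naglu, a lysosomal enzyme of chain breakdown (0.25 ± 0.25), Fgf18 (0.45 ± 0.26) and Glce, the epimerase (-0.30 ± 0.16). All of these had an adjusted p between 0.732 and 0.894. For 80 against 30 cGy 4 of the 53 had an unadjusted p under 0.05, against 4.04% of all genes. They were Xylt1 (0.78 ± 0.30), B4galt7, which adds the first galactose of the linker (0.32 ± 0.14), Fgf18 (0.58 ± 0.29) and Mdk (-1.17 ± 0.57), each with an adjusted p of 0.978. B4galt7 was the 1 such gene for 80 against 10 cGy (0.33 ± 0.14), Ugdh for the mean of the doses (-0.34 ± 0.16) and Fam20b for the slope (-0.03 ± 0.01 per 10 cGy), and the F test had 2, B4galt7 and Xylt1.

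Across the 45 tumours pairs of the 9 genes were correlated, and the pairs called are given in 2 sets arranged after their values were seen. Of 36 pairs, 11 had an adjusted p under 0.05 for Pearson's r (permutation test with 100000 resamples, two-sided, Benjamini-Hochberg over the 36 pairs), 9 of them positive. The tumours differed widely in epithelial junction genes such as Cdh1 and Cldn3. The mean centred level of 14 such genes lay below -1 in 9 tumours (5 sham, 1, 1 and 2 after 10, 30 and 80 cGy), so r is also given over the other 36 and over those 9. In the first set, Hs3st1 rose with Sulf2 (r = 0.56, p = 5e-05, adjusted p = 0.00072; rho = 0.54, adjusted p = 0.00228; 0.55 over the 36 tumours and 0.79 over the 9). Sulf2 stood high in the likeness to Hs3st1, since 81 of the 12122 other genes had a higher r with it. Since Hs3st1 was chosen for a difference between groups, its p over all tumours draws on that difference, and the value with group means subtracted does not. That r was 0.57 (adjusted p = 0.00084), and r was 0.54 without the 2 tumours farthest from the median. Hs2st1 rose with Sulf2 (r = 0.45, adjusted p = 0.0109; rho = 0.51, adjusted p = 0.00333; 0.47 and 0.24 over the 36 and the 9) and with Hs3st1 (r = 0.44, adjusted p = 0.0131; rho = 0.38, adjusted p = 0.0319; 0.47 and 0.20), the latter at 0.45 with group means subtracted (adjusted p = 0.0101). Without the 2 farthest tumours these were 0.47 and 0.39.

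In the second set, Sulf1 rose with Hs6st2, Ext1 and Ndst2. For Sulf1 and Hs6st2 r was 0.62 (adjusted p = 0.00072; rho = 0.49, adjusted p = 0.00576; 0.70 and 0.39 over the 36 and the 9), and 0.51 without the 2 farthest tumours. Sulf1 was the fifth gene by r among all that were set against Hs6st2, with 4 genes above it. For Sulf1 and Ext1 r was 0.58 (adjusted p = 0.00072; rho = 0.56, adjusted p = 0.00216; 0.43 and 0.89). Ndst2 rose with Sulf1 (r = 0.52, adjusted p = 0.00162; rho = 0.55, adjusted p = 0.00216) and with Ext1 (r = 0.52, adjusted p = 0.0023; rho = 0.50, adjusted p = 0.00389) over all 45 tumours. Without the 2 farthest tumours the r of Sulf1 with Ext1 was 0.54, and those of Ndst2 were 0.56 and 0.48. Both were also positive over the 36, at 0.45 and 0.42, but negative over the 9 tumours low in junction genes, at -0.43 and -0.63, so neither relation held within those. The other 4 pairs were weaker. Ext2 with Sulf1 (r = 0.40, adjusted p = 0.0293; rho = 0.39, adjusted p = 0.0319) and Hs6st2 with Ext1 (r = 0.39, adjusted p = 0.0304; rho = 0.34, adjusted p = 0.0602) were positive. Hs6st2 was negatively related to Hs2st1 (r = -0.39, adjusted p = 0.0304; rho = -0.39, adjusted p = 0.0319) and to Sulf2 (r = -0.37, adjusted p = 0.0424; rho = -0.40, adjusted p = 0.0319). Over the 36 and the 9, Ext2 with Sulf1 was at 0.39 (adjusted p = 0.0601 over the 36) and -0.14, and Hs6st2 with Ext1 at 0.50 and 0.15. Hs6st2 with Hs2st1 was at -0.46 and 0.38, and Hs6st2 with Sulf2 at -0.43 and -0.08. Ext2 with Sulf1 and Hs6st2 with Hs2st1 thus turned sign over the 9. Without the 2 farthest tumours Ext2 with Sulf1 and Hs6st2 with Ext1 were at 0.33 and 0.31 and missed the adjusted threshold (adjusted p = 0.0735 and 0.103). Hs6st2 with Sulf2 was at -0.36, close to its value over all tumours, and just missed the threshold (adjusted p = 0.057). A further setting kept 1 tumour per code stem, the description code without its L or R ending (37 tumours). There Ext2 with Sulf1, Hs6st2 with Ext1 and Hs6st2 with Sulf2 missed the threshold (adjusted p = 0.0845, 0.112 and 0.0845).

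**Figure D3:**
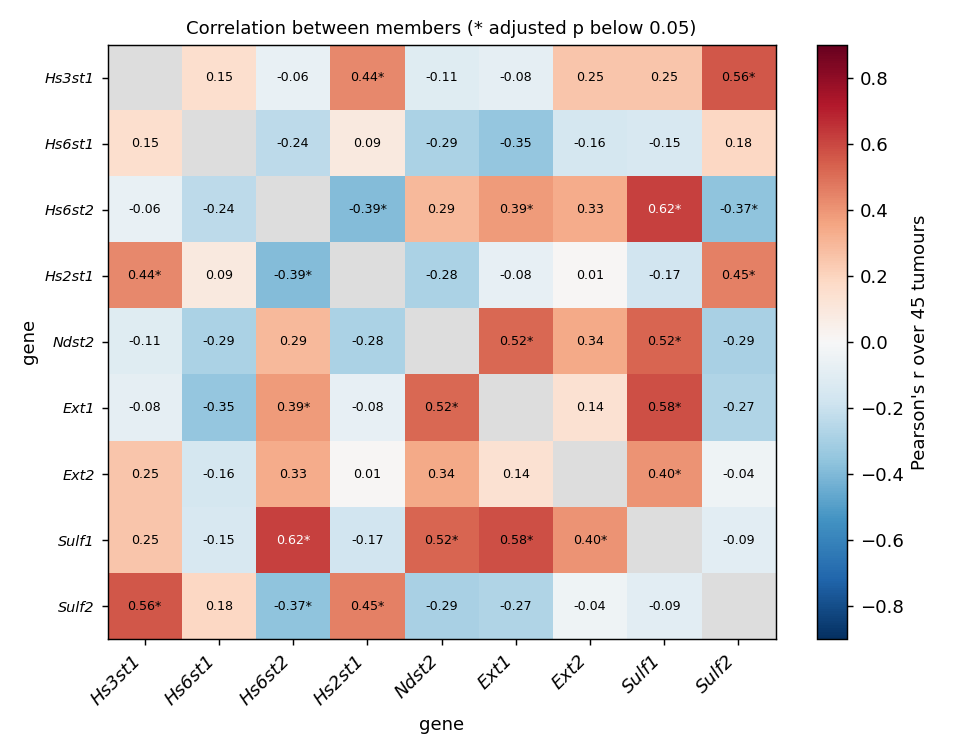
Pearson's r between the 9 genes over 45 tumours, with red for positive, blue for negative and an asterisk where the adjusted p was under 0.05. The largest positive values are 0.62 for Sulf1 with Hs6st2, 0.58 for Sulf1 with Ext1 and 0.56 for Hs3st1 with Sulf2.

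The same genes were set against 16 marker lists of epithelial, stromal and immune cells and of the cell cycle. A tumour's score on a list is the mean of its genes' log2 values after subtracting each gene's mean over the tumours. Of 144 relations, 54 had an adjusted p under 0.05 (permutation test as above, over the 144), 33 positive and 21 negative. Over the 36 tumours with higher junction genes 37 did, and 29 of these were among the 54. These are bulk tumours, in which fewer cells of a type and less RNA per cell cannot be told apart. Krt8 ranged from 7.01 to 13.36 and Epcam from 4.80 to 11.97, so the epithelial signal expected of a mammary carcinoma was low in some tumours.

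Hs3st1 was lower where basal and myoepithelial genes (Krt5, Krt14, Trp63, Acta2 and 5 others) were higher. Over the 45 tumours r was -0.51 (p = 0.00042, adjusted p = 0.00288; rho = -0.49, adjusted p = 0.00392), over the 36 tumours -0.75 (adjusted p = 0.00072) and over the 9 tumours low in junction genes -0.04. It was -0.49 without the 2 farthest tumours and -0.47 with group means subtracted (adjusted p = 0.00725). Hs3st1 was higher with the fibroblast and matrix genes (r = 0.41, adjusted p = 0.0242; rho = 0.47, adjusted p = 0.00581; 0.41 and 0.68 over the 36 and the 9) and lower with the squamous genes (r = -0.38, adjusted p = 0.0297; rho = -0.37, adjusted p = 0.0359; -0.46 and -0.32). With group means subtracted the fibroblast value was 0.37 (adjusted p = 0.0337), while the squamous value was -0.31 and no longer passed (adjusted p = 0.0782). The squamous relation also missed the threshold with 1 tumour per code stem (-0.38, adjusted p = 0.0642) and without the 2 farthest tumours (-0.36, adjusted p = 0.0507), where the fibroblast value was 0.42. The mesenchymal list held 11 genes, among them Twist1, Zeb1, Prrx1, Tbx15 and Foxf2. With it r was 0.39 over all tumours (rho = 0.41) and 0.40 without the 2 farthest. With group means subtracted it was 0.23 (adjusted p = 0.216) and over the 36 tumours 0.41 (adjusted p = 0.0501), so neither passed.

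The scores of these lists in the 80 cGy and sham tumours overlapped, and their difference was not tested. The lists were chosen with earlier results of these data known, so the scores are a description and no independent support. The basal score was -0.84 ± 0.86 (SD; range -1.77 to 0.69) after 80 cGy and 0.16 ± 1.73 (range -2.37 to 2.74) in sham tumours, and all 9 of its 9 genes had lower means. The 6 squamous genes had lower means in 6 of 6, with a score of -0.74 ± 0.76 (range -1.57 to 0.64) against 0.34 ± 1.95 (range -1.56 to 4.77). The mesenchymal score was 0.53 ± 0.79 (range -0.78 to 1.63) against -0.09 ± 0.56 (range -1.18 to 0.92), with 9 of 11 genes higher. All 12 fibroblast genes had higher means, with a score of 0.37 ± 0.98 (range -1.07 to 1.44) against -0.05 ± 0.92 (range -1.84 to 1.44). Over all genes 56.6% had higher means after 80 cGy. None of these marker genes passed an adjusted p of 0.05. With the basal score as a covariate, an alternative chosen after seeing the data, the Hs3st1 difference after 80 cGy was 1.29, and with the fibroblast score, likewise chosen, it was 1.39. Without the 9 tumours low in junction genes it was 1.55.

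**Figure D4:**
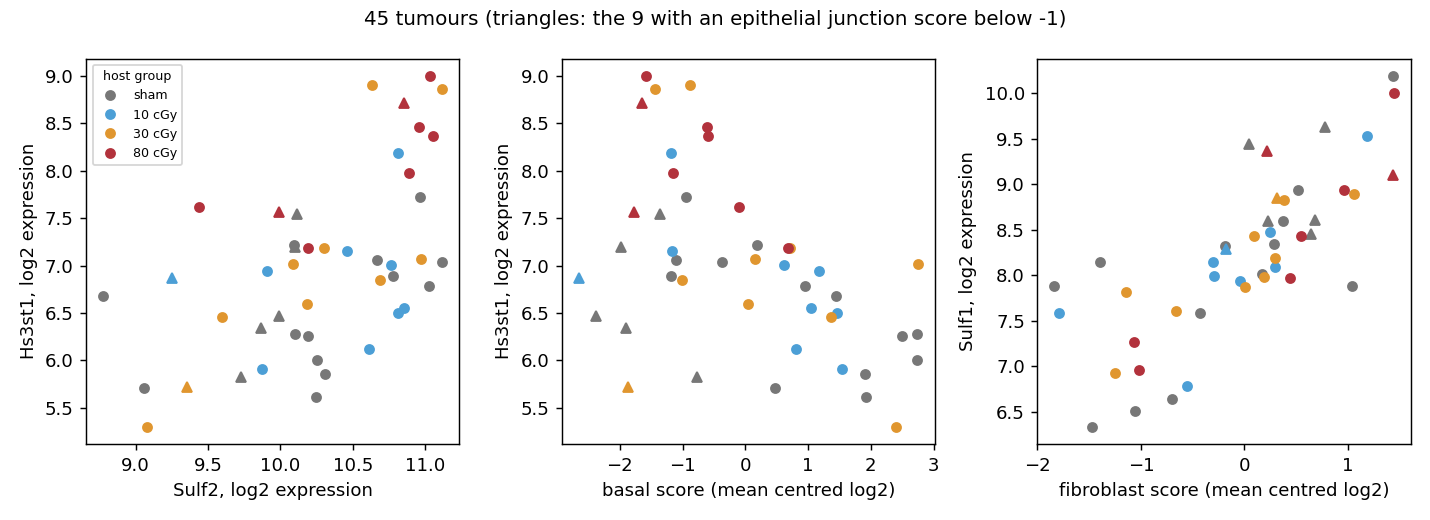
Hs3st1 against Sulf2 (left, both in log2 units), Hs3st1 against the basal score (middle) and Sulf1 against the fibroblast and matrix score (right), with 1 point a tumour, coloured by host group, and triangles for the 9 tumours with a junction score below -1. Hs3st1 falls with the basal score among the circles (r = -0.75 over 36 tumours) and not among the triangles (r = -0.04).

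The 2 largest values of r among the 144 were those of Sulf1 with stromal and macrophage genes. With the fibroblast and matrix genes (Col1a1, Dcn, Fap and 9 others) r was 0.77 (adjusted p = 0.00021; rho = 0.79, adjusted p = 0.00016; 0.78 and 0.22 over the 36 and the 9). With macrophage genes such as Csf1r and C1qa it was 0.70 (adjusted p = 0.00021; rho = 0.73, adjusted p = 0.00016; 0.65 and 0.48), and with mesenchymal genes 0.65 (adjusted p = 0.00021; rho = 0.74, adjusted p = 0.00016; 0.62 and 0.11). Without the 2 farthest tumours these were 0.72, 0.69 and 0.64. The raw p of the first was 1e-05, the smallest that 100000 resamples can give. As background, 12.8% of all genes had an r beyond 0.5 in size with Sulf1, the same share with Ext1 and 11.1% with Ndst2, whereas the shares were 2.72% for Hs3st1 and 1.32% for Hs6st2.

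Ext1 and Ndst2 were lower where junction genes were higher. For Ext1 r was -0.64 (adjusted p = 0.00021; rho = -0.67, adjusted p = 0.00016), at -0.65 over the 36 tumours and 0.56 over the 9. For Ndst2 r was -0.68 (adjusted p = 0.00021; rho = -0.65, adjusted p = 0.00016), at -0.43 and -0.35. Ndst2 was also higher with macrophage genes (r = 0.64, adjusted p = 0.00036; rho = 0.63, adjusted p = 0.00036; 0.53 and 0.02) and with mast cell genes (r = 0.56, adjusted p = 0.00072; rho = 0.50, adjusted p = 0.00392; 0.46 and 0.31). Without the 2 farthest tumours the Ext1 value was -0.62 and the Ndst2 values were -0.66, 0.60 and 0.57. NDST2 is known in mice as the enzyme that mast cells need for heparin. The mast cell list was not particular to Ndst2, since it also passed with Sulf1 (r = 0.44), Ext1 (0.44), Ext2 (0.36) and Hs6st1 (-0.36). The relation of Ndst2 to T cell genes (r = 0.52 over 45 tumours) was 0.31 over the 36 and no longer passed.

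Sulf2, unlike Sulf1, followed the luminal list (Krt8, Epcam, Gata3 and 7 others) with r = 0.55 (adjusted p = 0.00122; rho = 0.53, adjusted p = 0.00173; 0.57 and 0.42 over the 36 and the 9), while Sulf1 had r = -0.32 with the same list. The difference between these values was not tested. Hs6st1 rose with the junction genes (r = 0.44, adjusted p = 0.0125; rho = 0.52, adjusted p = 0.00273; 0.47 and -0.07). That relation missed the threshold with 1 tumour per code stem (r = 0.39, adjusted p = 0.0612). Hs6st2 rose with the fibroblast genes (r = 0.50, adjusted p = 0.0025; rho = 0.44, adjusted p = 0.0108; 0.60 and -0.26), and 1 tumour at 8.86 lay far from the rest, without which and 1 other r was 0.40. Ext2 rose with the endothelial genes (r = 0.57, adjusted p = 0.00092; rho = 0.66, adjusted p = 0.00036; 0.55 and 0.60). Hs2st1 rose with the cell cycle genes (r = 0.42, adjusted p = 0.019; rho = 0.40, adjusted p = 0.0224; 0.46 and -0.20). Without the 2 farthest tumours r was 0.53 for Sulf2 with the luminal list, 0.40 for Hs6st1 with the junction genes, 0.58 for Ext2 and 0.42 for Hs2st1.

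**Figure D5:**
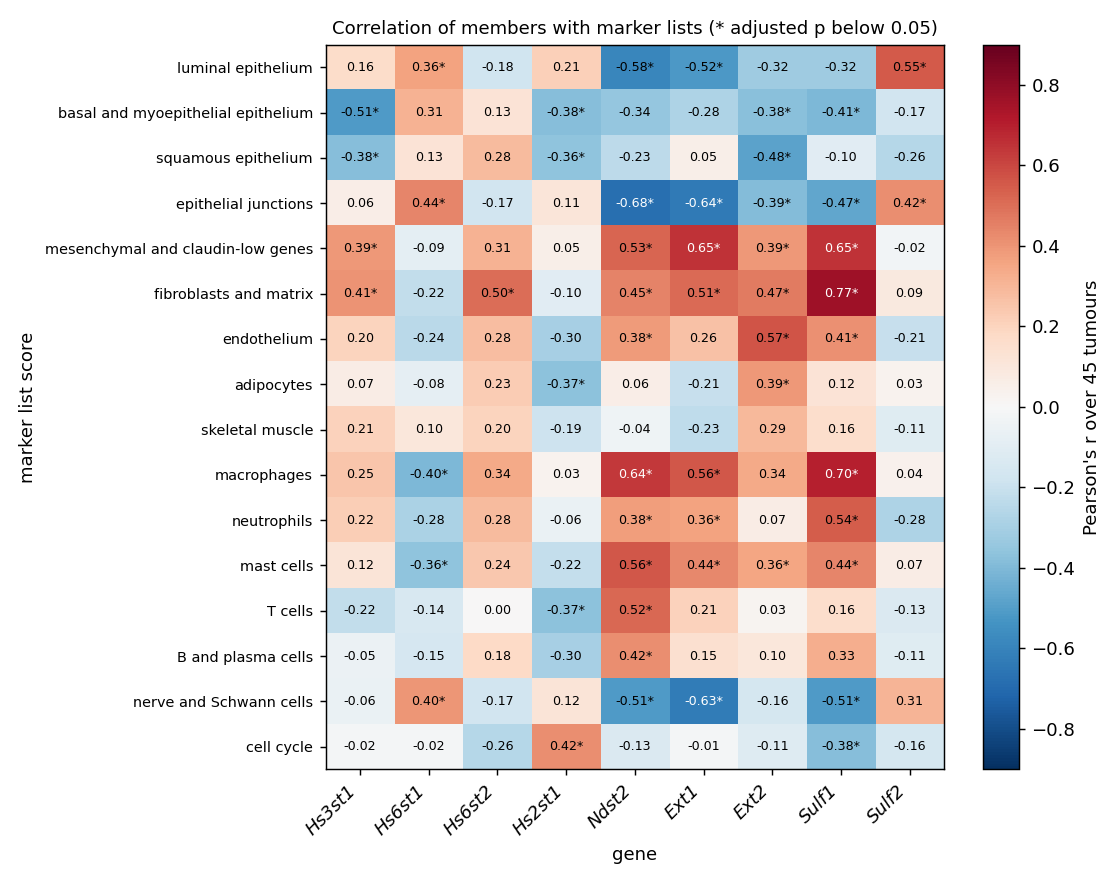
Pearson's r of the 9 genes (columns) with 16 marker list scores (rows) over 45 tumours, with red for positive, blue for negative and an asterisk where the adjusted p was under 0.05. Sulf1 has 0.77 with fibroblasts and matrix, Ndst2 has -0.68 with epithelial junctions and Hs3st1 has -0.51 with the basal list.

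Among all 12122 other genes, those most like Hs3st1 by Pearson's r over the 45 tumours were Nav3 (0.80), Ap3s1 (0.78), Capza2 (0.77), St7 (0.75) and Zfp469 (0.73). NAV3 is a protein that binds microtubule ends, AP3S1 a subunit of a vesicle adaptor and CAPZA2 a subunit of the actin capping protein. Those most opposed were Dennd2c (-0.68), Srsf4 (-0.67), a splicing factor, and Ripor2 (-0.65). Nav3 was also the gene second most like Sulf2 (0.73), after Scara5 (0.76). The genes most like Sulf1 were Adam12 (0.82) and Lrp1 (0.81), a metalloprotease and an endocytic receptor, and those most like Ndst2 were Axl (0.79) and Was (0.77), a receptor kinase and an actin regulator of blood cells. For Ext1 they were Lhfp (0.82) and Rab31 (0.80), for Ext2 Nucb1 (0.81) and Zfp592 (0.70), for Hs6st1 Kansl3 (0.80) and Fam168b (0.75), for Hs6st2 Cmah (0.68) and Myo18b (0.65), and for Hs2st1 Ythdf3 (0.73) and Eif2a (0.73). Of the 21 most alike genes named, 4 lay on their member's own chromosome. They were Kansl3 and Fam168b with Hs6st1, and Ythdf3 and Eif2a with Hs2st1.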

How the data were processed

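Deposited values were log2 expression per probe set, made by the authors with RMA in the oligo package, per the submitters' processing notes. The sources used here give no version of either, and medians of single arrays ran from 5.48 to 5.80. The platform annotation paired 21218 of the 35556 probe sets with 1 symbol, 1881 with several and 12457 with none. A gene was represented by its single-symbol probe set with the highest mean and kept if it lay above the table's median, 5.67, in at least 8 tumours. The 4 host groups, read from the sample titles, were fitted together with limma 3.58.1 in R 4.3.3, two-sided, with Benjamini-Hochberg adjustment over 12123 genes. Correlations were computed in Python 3.11.15 with numpy 2.4.6. Both were tested on simulated data. Members and lists were chosen with earlier results of these data known. Named pathway genes were those of unadjusted p under 0.05, otherwise the smallest p of each list. Likeness was Pearson's r, naming 5 highest and 3 lowest for Hs3st1 and 2 highest for each other gene. The description codes of 16 tumours differ from another's only in an L or R ending (8 such pairs), and whether such tumours shared a host is not given. Nothing says that tumours came from separate animals, so p-values measure the spread between tumours. The number of arrays limits precision. Alternatives are given at the end.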

Additional observations from a re-analysis of the deposited data

Results flagged for a closer look

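Of 27 sets of 8 to 10 tumours (9 genes in 3 irradiated groups), 2 had a tumour far from its nearest neighbour for the range of its group, by Dixon's test at 95%. Chance gives about 1 in 20. After 80 cGy, replicate 1 had an Hs6st2 level of 8.86, with the next tumour at 6.63. In the same group, replicate 8 had an Hs6st1 level of 10.15, with the next at 9.55. The 18 sham tumours were too many for this test.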

How the results depend on the processing

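No member other than Hs3st1 and no other heparan sulfate gene that was tested passed an adjusted p of 0.05 in any of 8 contrasts under any of 15 alternatives or without any 1 of the 45 tumours. Hs3st1 was left out of this count because of how it was chosen. Its adjusted p in the main fit was not under 0.05, which for contrasts with the 80 cGy tumours is no test. The stricter filter left 8 members, without Hs6st2, and 39 of the 53 other genes, and no filter added 9, for 62. Over all genes, where 0 were called, array weights gave 30 for 80 cGy against sham, 3 for 80 against 30 cGy, 25 for the slope on dose and 2 for the F test. The replicate block, tried although same-numbered tumours shared only a number (median r of deviations -0.07 over 52 pairs, 10 above 0.1), gave 1 for 80 cGy against sham and 6 for the mean of the doses. Leaving out 1 tumour gave 0 to 1 for 80 cGy against sham, the mean of the doses and the slope. The tumours were 80 cGy replicate 7 for the first, 10 cGy replicate 5 and sham replicate 12 for the second, and 80 cGy replicates 2 and 7 for the third. Replicate 7 had the lowest Hs3st1 level of the 80 cGy group, at 7.18. Hs3st1 was among all genes counted here, so these calls may include it, and the genes called are not named. The Hs3st1 difference after 80 cGy lay between 1.29 and 1.64 under the alternatives, at 1.33 with the replicate block, and between 1.40 and 1.66 without 1 tumour. Differences that turned their sign were small. Hs6st1 at 30 cGy was -0.056 against the sham tumours of code 6 alone, against which Hs6st2 was 0.15 at 10 cGy and 0.19 at 80 cGy. Hs6st2 at 80 cGy was 0.0165 with 1 tumour per code stem. Sulf1 at 80 cGy was -0.012 with the replicate block and -0.0574 with the fibroblast score as a covariate, which was chosen after seeing the data. The cause was not tested. Correlated pairs of members numbered 8 to 12 under the alternatives and relations to marker lists 37 to 55. Of 390 values for the 65 correlations called, 319 stayed past the threshold, 71 did not and 0 turned sign. These values leave out r over the 9 tumours low in junction genes alone. There some of the 65 had the opposite sign, such as Ndst2 with Ext1 (-0.63), as given above.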

Other observations

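The genes most like some members lay on the member's own chromosome more often than genes do in general, and those most like others did not, as a description without a test. Of the 50 genes with the highest r with Hs6st1, 19 shared its chromosome, as do 5.85% of all placed genes. For Hs2st1 12 of the 50 did, against 4.98% of all genes, for Ext2 10 against 7.82% and for Ext1 5 against 4.16%. Ndst2 had 3 (3.45%), Sulf1 4 (5.85%) and Sulf2 4 (7.82%), shares nearer to those of all genes. For Hs3st1 and Hs6st2 0 of the 50 did, against 6.31% and 3.11%. The 20 nearest placed neighbours of Ndst2 had a median r of 0.38 with it (highest 0.69), those of Hs6st1 0.27 (highest 0.80) and those of Hs3st1 -0.01 (highest 0.25), with medians of 0.00, 0.04 and 0.04 for genes on other chromosomes. Those of Ext2 had 0.01 and those of Sulf1 -0.18. Gene order came from RefSeq's GRCm38.p6 table, and no copy number was measured.

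Tumours whose description codes differ only in an L or R ending were close in Hs3st1 in some pairs and far apart in others. After 80 cGy the highest and the lowest tumour of the group, at 9.00 and 7.18, formed such a pair. After 30 cGy 1 pair had 6.85 and 8.87, and another 7.02 and 7.07. After 10 cGy the pair had 6.56 and 7.00. Among sham tumours the pairs had 7.19 and 7.21, 5.86 and 6.26, 6.01 and 6.78, and 7.54 and 5.83. Over all genes, deviations from the group mean within the 8 pairs had r between -0.11 and 0.15 in 7 and 0.69 in the last, the sham pair with 7.54 and 5.83.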
